A study of Mus musculus with 24 samples.

Results

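The comparison examined here asked how the transcriptional response of mouse cortical neurons to membrane depolarization differed between young and older cultures. It is the difference between 2 responses. The first is the response at 7 days in vitro (DIV7), depolarized against resting. The second is the response of cultures at DIV18 that carried a non-targeting guide RNA (NT), depolarized against resting. It used 8 of the 24 libraries of the series, 2 in each of the 4 groups. All cultures were primary neurons from the cortex of mouse embryos of embryonic day 16.5, and each embryo was a biological replicate. The DIV7 cultures were wild type and unmodified and received 0.1% DMSO in both states, while the labels give no DMSO for NT. The NT cultures carried a CRISPR guide with no target, the control for the knockout of Smarcc2 that the rest of the series studied. Both states at both ages were silenced overnight with 1 µM tetrodotoxin, a sodium channel blocker, and 100 µM D-AP5, an NMDA receptor antagonist, and depolarization was by 50 mM KCl over 30 min. Libraries at DIV7 came from poly(A)-enriched RNA, while those of NT came from total RNA depleted of ribosomal RNA, so that library type, guide RNA, DMSO and culture age cannot be told apart in any difference given below.

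Raised extracellular potassium depolarizes neurons and opens voltage-gated calcium channels. Calcium entry activates kinases that reach the nucleus and act on factors already present, such as Creb1 and the complex of Srf and Elk1. The genes that respond first, the immediate early genes, need no new protein synthesis. Many encode transcription factors (the Fos, Egr and Nr4a families, Npas4), which then act on a later set of genes such as Bdnf and Pcsk1, and others encode synaptic proteins or inhibitors of the same kinase cascades. The later set follows once these factors have been made.

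The DIV7 libraries held 24536056 to 30135576 estimated counts and the NT libraries 19890849 to 23835270. Protein-coding genes held 96.3% to 96.5% of the counts at DIV7 and 81.4% to 83.3% in NT. Transcripts annotated as retaining an intron held 3.85% and 3.81% of the counts at rest and 2.70% and 2.67% under KCl at DIV7, whereas they held 1.58% and 1.58% at rest and 1.60% and 1.48% under KCl in NT. The neuronal label fitted the markers at both ages: Map2, a dendritic protein, was at 1588 to 1846 CPM (counts scaled to library size with TMM normalisation) at DIV7 and at 1108 to 1332 CPM in NT. Slc17a7, the vesicular glutamate transporter of mature cortical excitatory neurons, was at 115 to 149 CPM at DIV7 and 1742 to 1825 CPM in NT. Neurod6, a transcription factor of young cortical neurons, was at 159 to 177 CPM and 12.7 to 25.0 CPM. The 8 astrocyte markers summed to 469 to 549 CPM at DIV7 and 1402 to 1948 CPM in NT, and the 7 microglia markers to 1.77 to 2.70 and 7.38 to 9.65 CPM. Slc1a2 made up most of the astrocyte sum in NT (1137 to 1345 CPM). Gfap, Aldh1l1, S100b, Gja1 and Sox9 were also higher in NT without overlap, while Slc1a3 and Aqp4 overlapped between the ages. Of the microglia markers, Csf1r (0.48 to 0.84 and 4.54 to 6.58 CPM) and Aif1 were higher in NT. Cx3cr1, P2ry12, C1qa, C1qb and Tmem119 overlapped. A different number of cells of a type and a different amount of RNA per cell cannot be told apart in such bulk libraries.

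Far more genes passed the test of the KCl response at DIV7 than in NT. Of 21072 genes tested, 494 (2.34%) had different responses at an adjusted p under 0.05 (edgeR's quasi-likelihood test with Benjamini-Hochberg adjustment over all genes). The DIV7 response lay above the NT response in 127 of them (0.603%) and below it in 367 (1.74%). At DIV7 alone 1748 genes were called (8.3%), of which 653 rose (3.1%) and 1095 fell (5.2%). In NT no gene was called (0%), while 1768 had an unadjusted p under 0.05 and DESeq2 called 63. The common biological coefficient of variation was 6.44% among the DIV7 libraries and 13.2% among the NT libraries, so the NT response was measured with less precision. The fit of the 8 libraries used 1 spread per gene for both ages. Its standard errors, intervals and p-values therefore do not carry this gap. Those of the NT response may be too narrow and those of the DIV7 response too wide.

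Most of these differences lay in genes that were called at DIV7. Of the 127 genes above, 120 were called higher at DIV7 (3.1% of all genes), and of the 367 below, 345 were called lower (5.2%). Both tests use the same DIV7 libraries, so such an overlap is largely built in and is no separate result. An NT response within 0.5 of 0 on the log2 scale was found in 97 of the 127 and 327 of the 367, but also in 16868 of all 21072 genes, so it does not set the called genes apart. Genes that rose at DIV7 by at least 1 on the log2 scale numbered 329, and 51.1% of them had a positive NT response, beside 53.1% of all genes with a positive DIV7 response. Genes that fell by at least 1 numbered 388, and 55.4% of them had a negative NT response, beside 50.4% of all genes with a negative DIV7 response.

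**Figure D1:**
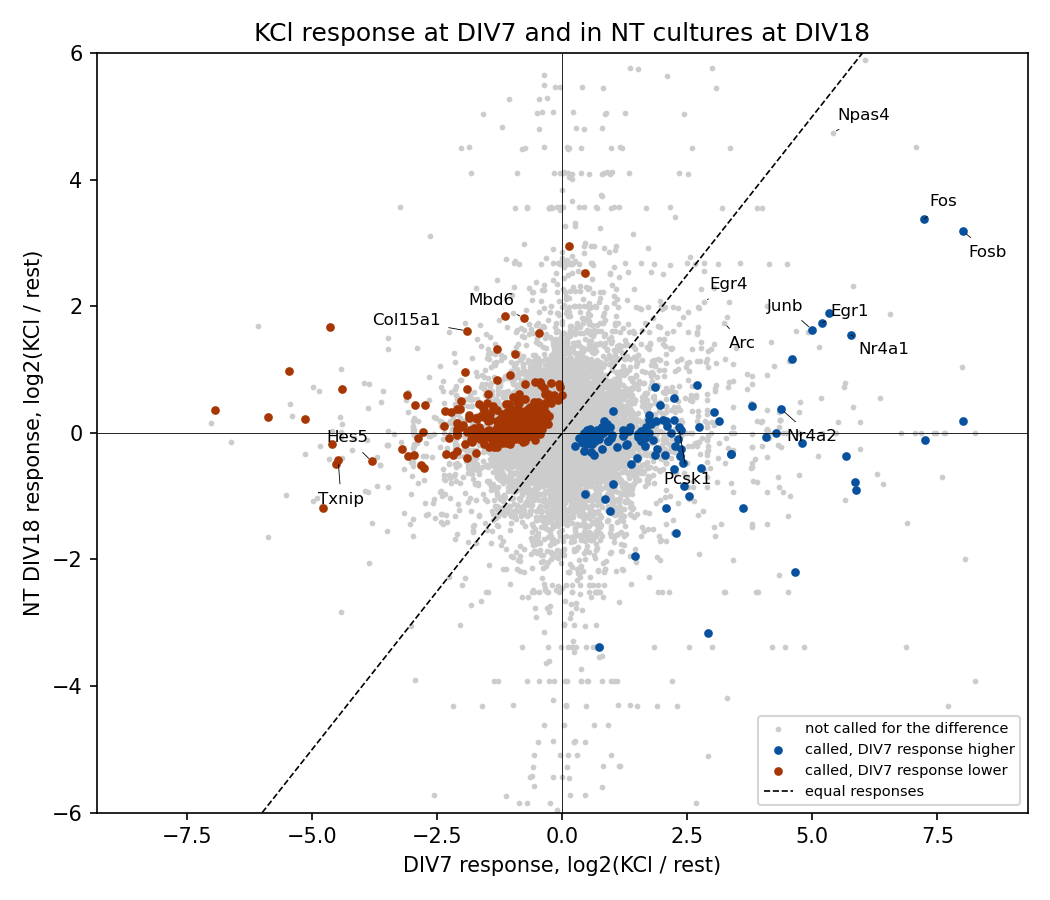
Each point is a gene, with its log2 response to KCl at DIV7 on the x axis and in NT cultures at DIV18 on the y axis. 21036 genes lie within the axes and 36 outside. Blue and red points are the 127 and 367 genes called for the difference, and the dashed line marks equal responses. Fos, Fosb and Npas4 lie high on both axes, and genes lie close to an NT response of 0 whether called or not.

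Among 25 early transcription factors, 18 rose and 2 fell at DIV7, where 3.1% of all genes rose and 5.2% fell. This list and those below were chosen with earlier results of these data known, so such counts are no independent test. A positive NT response was found in 22 of the 25 and in 10776 of all 21072 genes. The difference was called higher at DIV7 in 9 (0.603% of all genes) and lower in 1 (1.74%). The median response of the 25 was 1.95 at DIV7 and 0.43 in NT on the log2 scale, and the median difference was 0.89, where the median over all genes was 0.00, 0.01 and -0.02. The 4 ratios of a depolarized to a resting library at DIV7 did not overlap the 4 in NT for 18 of the 25, beside 31.7% of all genes. The DIV7 ratios lay above those of NT in 15 of these 18, beside 3035 of all 21072 genes, and below them in the rest.

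Fos, which with Jun proteins forms the AP-1 transcription factor, was at 3.35 and 4.10 CPM in the resting DIV7 libraries and at 550 and 569 CPM under KCl. The NT libraries had 8.10 and 7.72 CPM when silenced, and 122 and 41.6 CPM with KCl. Both depolarized NT libraries lay above rest and far below the depolarized DIV7 libraries, and they differed from each other by more than the DIV7 libraries did. The log2 response was 7.24 at DIV7 (SE 0.48, adjusted p 4.23e-05, edgeR) and 3.38 in NT (SE 0.43, adjusted p 0.0605), a difference of 3.86 (SE 0.64, adjusted p 0.0178). That difference did not pass in 6 of 18 alternative analyses, each of which left out 1 library at DIV7 or 1 resting NT library (adjusted p at most 0.112).

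Fosb, a second partner of Jun proteins, was at 2.03 and 1.33 CPM at rest and 421 and 460 CPM under KCl at DIV7. It was at 11.9 and 10.3 CPM at rest and 145 and 56.1 CPM under KCl in NT. Resting levels were lower and depolarized levels higher at DIV7, with no overlap in either state. Its response was 8.01 (SE 0.49) against 3.18 (SE 0.38, adjusted p 0.0506), a difference of 4.83 (SE 0.62, adjusted p 0.0058, edgeR). Junb followed the same order: 11.95 and 9.68 CPM rose to 322 and 368 CPM at DIV7, and NT was at 43.4 and 37.2 CPM at rest and 161 and 88.4 CPM under KCl. The Junb difference was 3.36 (SE 0.35, adjusted p 0.00163, edgeR).

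The zinc-finger factors of the Egr family split. Egr1 went from 18.9 and 19.6 CPM to 705 and 710 CPM at DIV7, and was at 59.2 and 72.0 CPM at rest and 270 and 168 CPM under KCl in NT. Egr2 went from 1.42 and 1.74 CPM to 63.4 and 62.7 CPM at DIV7, and was at 1.60 and 1.47 CPM at rest and 6.78 and 4.62 CPM under KCl in NT. Resting levels of Egr2 overlapped between the ages and depolarized levels were far higher at DIV7, and its difference was 3.43 (SE 0.30, adjusted p 0.000792, edgeR). The difference for Egr1 was 3.46 (SE 0.27, adjusted p 0.000363, edgeR). Egr4 was at 3.90 and 4.21 CPM at rest and 28.1 and 29.7 CPM under KCl at DIV7, and at 8.10 and 9.77 CPM at rest and 49.4 and 25.1 CPM under KCl in NT. Its responses of 2.83 and 2.07 differed by 0.77 (95% interval -0.11 to 1.65, adjusted p 0.387, edgeR). Egr3 was at 9.92 and 11.3 CPM at rest and 16.1 and 20.04 CPM under KCl at DIV7, and at 36.0 and 49.2 CPM, then 41.1 and 37.5 CPM, in NT. The Egr3 difference of 0.89 did not pass (adjusted p 0.0884, edgeR). It passed in 5 of 18 alternatives, among them the one without the first resting NT library (1.10, adjusted p 0.0353, edgeR), and was 0.44 with offsets for effective length.

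The nuclear receptors of the Nr4a family, which act without a known ligand, showed large differences. Nr4a1 was at 8.54 and 9.60 CPM at rest and 471 and 517 CPM under KCl at DIV7. The NT libraries held 5.17 and 6.59 CPM at rest and 23.5 and 10.4 CPM under KCl. Its responses of 5.77 and 1.54 differed by 4.23 (SE 0.44, adjusted p 0.00163, edgeR), and with offsets for effective length this difference was smaller and did not pass (2.69, adjusted p 0.0793). Nr4a2 (chromosome 2, 57106830 to 57124003, minus strand, GRCm38) was at 6.89 and 6.80 CPM at rest and 148 and 137 CPM under KCl at DIV7. Its NT levels were 6.72 and 4.79 CPM at rest and 8.97 and 5.89 CPM under KCl, so that the states overlapped. The Nr4a2 response was 4.38 (SE 0.17) at DIV7 and 0.37 in NT (95% interval -0.09 to 0.84), a difference of 4.00 (SE 0.27, adjusted p 0.000237, edgeR). Nr4a3 and Klf4, named after their values were seen, were also called higher, by 1.51 and 3.37. Klf6, a Krüppel-like factor named on the same ground, was the 1 member called lower (-0.97, adjusted p 0.0229, edgeR).

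Npas4, a factor induced by calcium in neurons, had large responses at both ages and no detectable difference. It was at 3.45 and 4.43 CPM at rest and 164 and 169 CPM under KCl at DIV7, and at 1.83 and 0.83 CPM at rest and 57.3 and 14.2 CPM under KCl in NT. All 4 depolarized libraries lay above all 4 resting ones. Its responses of 5.40 and 4.74 differed by 0.67, with a 95% interval of -1.68 to 3.01 (adjusted p 0.818, edgeR). Differences of several fold in either direction were thus within the precision. The value depended on single libraries: it was -0.03 without the first resting NT library, -0.0047 without the second depolarized NT library and 2.02 without the first (adjusted p 0.0324, edgeR).

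Of the other early genes chosen for naming, 3 did not pass either. Arc, a protein that regulates the traffic of AMPA receptors at synapses, was at 6.54 and 4.80 CPM at rest and 51.9 and 55.4 CPM under KCl at DIV7. NT cultures had 52.8 and 48.4 CPM at rest and 228 and 110 CPM under KCl. The resting NT values in CPM were close to those of the depolarized DIV7 libraries, but the library types differ, so equal CPM need not mean equal levels. Its responses of 3.23 and 1.74 differed by 1.49 (95% interval 0.55 to 2.43, adjusted p 0.113, edgeR). Ier2 differed by 1.05 (adjusted p 0.287) and Dusp1, a phosphatase of MAP kinases, by 0.94 (adjusted p 0.181). All 3 were called higher at DIV7. Each passed without the first depolarized NT library (edgeR): Arc differed by 2.11 (adjusted p 0.00103), Ier2 by 1.80 (adjusted p 0.00192) and Dusp1 by 1.44 (adjusted p 0.00215), and so did Egr4 (1.34, adjusted p 0.0143). Arc also passed without the second (1.06, adjusted p 0.0289).

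**Figure D2:**
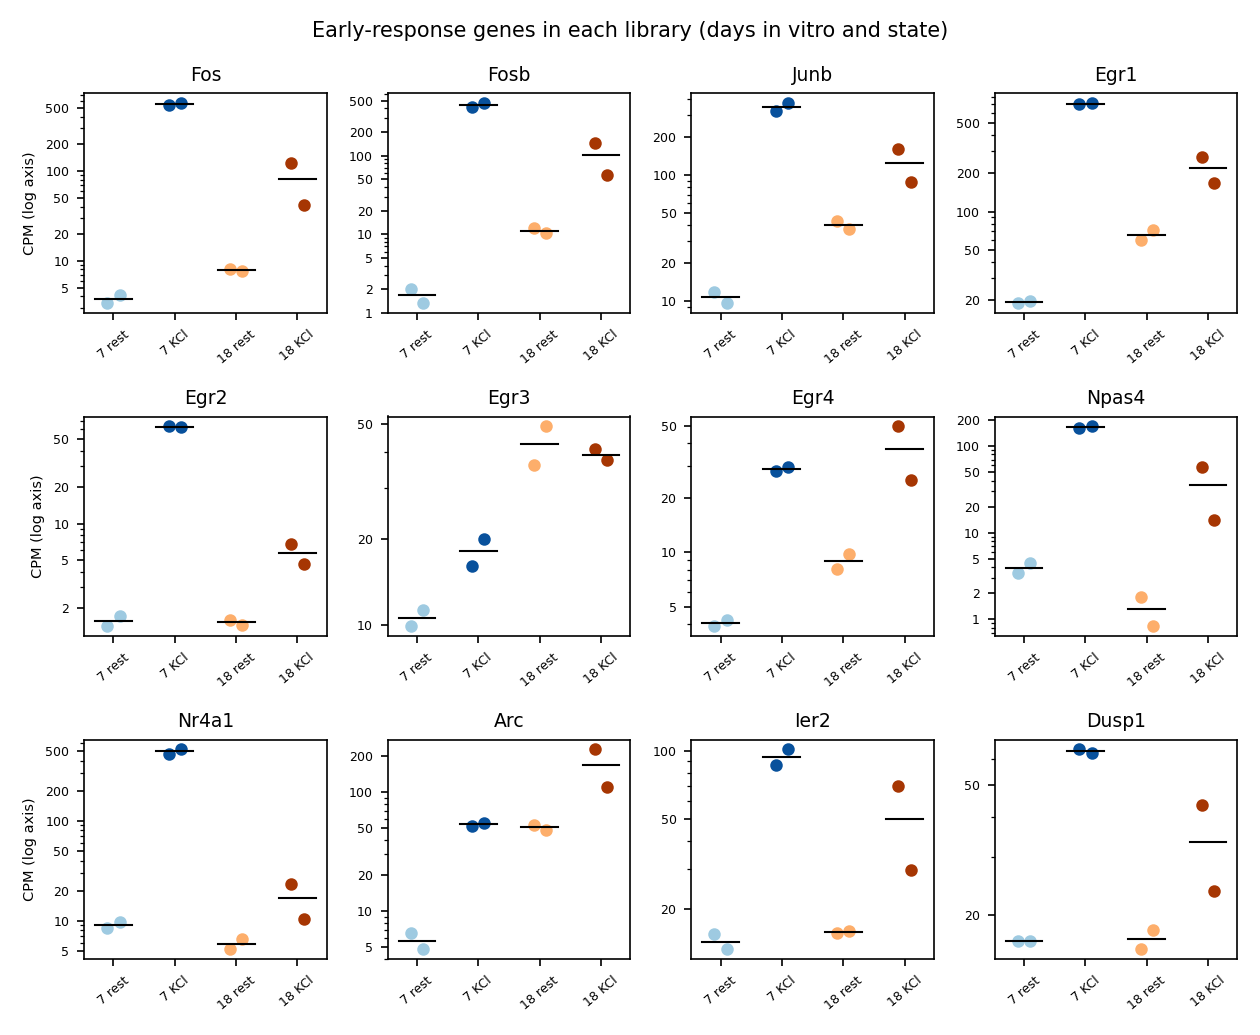
Levels of the 12 early genes chosen for naming in each of the 8 libraries, in CPM on log axes, at 7 and 18 days in vitro, at rest and under KCl. Points are libraries and bars are means of 2. Except for Egr3, the depolarized NT libraries spread more than the depolarized DIV7 libraries, and Npas4, Egr4 and Arc are high under KCl at both ages.

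Spread was wide between both depolarized NT libraries. Replicate 1 was higher than replicate 2 for Fos (122 against 41.6 CPM), Fosb (145 against 56.1 CPM), Junb (161 against 88.4 CPM) and Npas4 (57.3 against 14.2 CPM). The same replicate 1 was lower for genes of oligodendrocyte precursors and astrocytes: Pdgfra was at 1.53 against 14.6 CPM, Olig1 at 7.18 against 26.4 CPM, and Gfap at 91.0 against 337 CPM. The summed oligodendrocyte-lineage markers were at 141 and 230 CPM in these libraries while resting NT cultures had 212 and 220 CPM, with none of the 8 markers at 0 in NT. The part of these cells in the results was not tested. Without replicate 1 the median difference of the early transcription factors was 1.68, and without replicate 2 it was 0.77.

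The sequences before the start of transcription are shown for Fos and Npas4, which had large responses at both ages. They are also shown for Nr4a2, Pcsk1 and Gadd45b, whose NT response was within 0.5 of 0 on the log2 scale. Each window runs from 250 bases before to 50 bases after the start (RefSeq, GRCm38.p6), 5′ to 3′ on the strand of the gene. Capitals mark TGACG, the core of the site bound by Creb1, or its reverse complement CGTCA.
Fos, chr12:85473640-85473939, plus strand: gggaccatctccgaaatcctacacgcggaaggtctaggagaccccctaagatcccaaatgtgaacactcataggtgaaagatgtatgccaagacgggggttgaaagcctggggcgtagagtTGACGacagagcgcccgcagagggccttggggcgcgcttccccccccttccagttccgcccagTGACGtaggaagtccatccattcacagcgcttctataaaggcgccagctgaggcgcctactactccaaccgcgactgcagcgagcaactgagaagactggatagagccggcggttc
Npas4, chr19:4989922-4990221, minus strand: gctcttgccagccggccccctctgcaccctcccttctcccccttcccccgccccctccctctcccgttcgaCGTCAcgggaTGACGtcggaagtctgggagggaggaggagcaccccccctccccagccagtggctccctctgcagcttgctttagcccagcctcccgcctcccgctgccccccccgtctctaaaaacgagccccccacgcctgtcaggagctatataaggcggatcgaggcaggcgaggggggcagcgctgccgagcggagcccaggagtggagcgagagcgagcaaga
Nr4a2, chr2:57123954-57124253, minus strand: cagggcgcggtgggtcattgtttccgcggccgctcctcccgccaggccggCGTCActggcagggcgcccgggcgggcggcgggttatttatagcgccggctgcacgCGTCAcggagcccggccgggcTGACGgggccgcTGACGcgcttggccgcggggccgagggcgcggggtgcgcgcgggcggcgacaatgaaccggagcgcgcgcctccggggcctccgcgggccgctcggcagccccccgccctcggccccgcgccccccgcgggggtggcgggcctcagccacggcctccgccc
Pcsk1, chr13:75089607-75089906, plus strand: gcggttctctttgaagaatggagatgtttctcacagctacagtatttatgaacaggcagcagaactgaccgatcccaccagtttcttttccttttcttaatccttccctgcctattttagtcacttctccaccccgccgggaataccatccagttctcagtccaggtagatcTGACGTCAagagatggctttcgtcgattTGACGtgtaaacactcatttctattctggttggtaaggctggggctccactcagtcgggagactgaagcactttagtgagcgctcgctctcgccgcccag
Gadd45b, chr10:80929841-80930140, plus strand: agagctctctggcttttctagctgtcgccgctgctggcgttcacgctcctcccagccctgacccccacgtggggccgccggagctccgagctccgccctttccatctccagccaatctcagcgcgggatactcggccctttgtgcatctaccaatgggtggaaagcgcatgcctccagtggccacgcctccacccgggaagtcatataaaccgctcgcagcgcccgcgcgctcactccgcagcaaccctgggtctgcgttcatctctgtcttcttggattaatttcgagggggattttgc
The core occurs on either strand 2 times in the Fos window, 2 times in that of Npas4, 4 times in that of Nr4a2 and 3 times in that of Pcsk1, and that of Gadd45b holds 0. It occurs at least once in 20.8% of 32851 promoter windows of the same length. The full palindrome TGACGTCA, which contains the core on both strands, occurs once in the Pcsk1 window and in 1.79% of all windows. Among the 37 genes named here 29 had a window, and the full palindrome occurred in those of 2, Pcsk1 and Dusp1. The CArG box, the site of Srf, was found in windows of 3 (Egr2, Zfp36 and Hes5) and in 1.63% of all windows. These matches describe the letters of the windows alone.

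Of 30 early effectors and feedback regulators tested, 19 rose and 1 fell at DIV7, beside 3.1% and 5.2% of all genes. The difference was called higher in 8 and lower in none, beside 0.603% and 1.74% of all genes, and 24 of the 30 had a positive difference. The median response was 0.69 at DIV7 and 0.15 in NT, with a median difference of 0.62. Gadd45b, a stress-response protein linked to DNA demethylation in neurons, was at 4.73 and 4.28 CPM at rest and 36.7 and 37.6 CPM under KCl at DIV7. All NT values lay between these, up to 17.7 CPM at rest and at 18.9 and 22.3 CPM under KCl. The depolarized levels at DIV7 were the highest of the 8 and the resting ones the lowest. Its responses of 3.04 and 0.33 differed by 2.70 (SE 0.18, adjusted p 0.000237, edgeR). The unadjusted 95% interval of its NT response was 0.05 to 0.61, so a small rise in NT is not set aside.

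Homer1, a scaffold of the postsynaptic density with an activity-induced short form, was at 86.9 and 85.1 CPM at rest and 290 and 279 CPM under KCl at DIV7. NT levels were 119 and 134 CPM at rest and 141 and 150 CPM under KCl. The NT states were close together but without overlap, and the unadjusted 95% interval of the NT response was 0.03 to 0.38. The response of 1.73 exceeded that of 0.21 by 1.52 (SE 0.11, adjusted p 0.000237, edgeR). Dusp6, a phosphatase of ERK kinases, went from 17.0 and 16.6 to 57.9 and 53.9 CPM at DIV7 and was between 11.7 and 17.7 CPM in all NT libraries, a difference of 1.45 (adjusted p 0.00753, edgeR).

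Ccn1, a secreted matrix protein, went from 3.19 and 2.29 to 69.0 and 64.0 CPM at DIV7. In NT the gene was at 4.99 and 6.55 CPM at rest and 18.8 and 6.82 CPM under KCl, so only 1 depolarized NT library stood clear of rest. Its difference was 3.42 (SE 0.55, adjusted p 0.0152, edgeR), and it did not pass in 7 of 18 alternatives (adjusted p at most 0.0874). Zfp36, which destabilizes messenger RNAs, differed by 2.72 and Gadd45g by 1.12 (adjusted p 0.0361 and 0.0326, edgeR). Zfp36 did not pass in 9 of 18 alternatives and Gadd45g in 7. The other called members were Ppp1r15a and Errfi1, at 0.67 and 0.69.

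Of 16 late-response genes tested, 3 rose at DIV7 (Pcsk1, Crem and Bdnf), beside 3.1% of all genes, and 2 differed between the ages, beside 2.34%. Pcsk1, a protease that processes prohormones, was at 14.4 and 12.1 CPM at rest and 69.1 and 64.3 CPM under KCl at DIV7. NT cultures held 14.9 and 15.1 CPM at rest and 17.6 and 14.2 CPM under KCl. The resting levels were close at both ages, and the depolarized NT libraries lay on both sides of rest. Its responses were 2.33 and 0.09 (95% interval of the latter -0.20 to 0.38), a difference of 2.24 (SE 0.17, adjusted p 0.000363, edgeR). Crem, a relative of Creb1 with repressor forms, went from 8.99 and 8.79 to 32.9 and 32.4 CPM at DIV7 and from 14.4 and 12.9 to 15.1 and 16.1 CPM in NT, a difference of 1.68 (SE 0.15, adjusted p 0.000708, edgeR). Bdnf, a neurotrophin, had responses of 1.12 and 0.51, whose difference did not pass (adjusted p 0.401).

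Avp, the vasopressin precursor, had the largest positive difference among the named genes, from few counts. Over both libraries of a state it had 2 estimated counts at rest and 68 under KCl at DIV7, a ratio per depth of 31.9 with a 95% interval for counting error of 8.49 to 268. NT levels were 1.19 and 0.98 CPM at rest and 1.12 and 0.81 CPM under KCl, so that the states overlapped. The difference was 4.96 (SE 0.71, adjusted p 0.00901, edgeR) and did not pass in 4 of 17 alternatives with an adjusted p (at most 0.0829).

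Falls made up most of the called differences, and Txnip had the largest among the named genes. Txnip (chromosome 3, 96557957 to 96561883, plus strand, GRCm38) binds thioredoxin and limits glucose uptake. It was at 46.3 and 42.4 CPM at rest and 2.24 and 1.71 CPM under KCl at DIV7. In NT it was at 136 and 166 CPM at rest and 119 and 105 CPM under KCl. The depolarized DIV7 libraries stood far below all others, and both depolarized NT libraries lay below rest by a smaller step. Its responses were -4.48 (SE 0.16, adjusted p 3.45e-06) and -0.43 (SE 0.11, adjusted p 0.48), and the difference was -4.05 (SE 0.20, adjusted p 6.22e-05, edgeR). Arrdc3, an arrestin of the same family as Txnip, was at 77.8 and 93.5 CPM at rest and 25.5 and 23.7 CPM under KCl at DIV7, and between 67.0 and 84.5 CPM in all 4 NT libraries. Its difference was -1.66 (SE 0.16, adjusted p 0.00107, edgeR). The list of Txnip and glucose-responsive genes holds 11, among them glucose transporters and the factors Mlxip and Mlx. Txnip and Arrdc3 were the 2 called for the difference, beside 2.34% of all genes. At DIV7 3 of the 11 fell and 1 rose, beside 5.2% and 3.1% of all genes.

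Hes5, a target and repressor in the Notch pathway, was at 3.38 and 3.10 CPM at rest and 0.16 and 0.30 CPM under KCl at DIV7. In NT it was at 0.96 and 1.32 CPM at rest and 1.12 and 0.52 CPM under KCl, so the NT states overlapped. The difference was -3.36 (SE 0.64, adjusted p 0.0326, edgeR), and it did not pass in 9 of 18 alternatives. Of 21 Notch pathway, Hes and Id genes tested, 4 fell at DIV7 (Hes5, Dll1, Notch2 and Jag2), beside 5.2% of all genes. Hes5 was the 1 member called lower for the difference, beside 1.74% of all genes. Id1, a partner that blocks DNA binding of helix-loop-helix factors, was the 1 called higher (3.39, adjusted p 0.0463, edgeR), beside 0.603%. Id1 was at 1.42 and 1.37 CPM at rest and 3.45 and 4.16 CPM under KCl at DIV7, and at 0.59 and 1.95 CPM, then 0.31 and 0.35 CPM, in NT. Its DIV7 response of 1.45 was itself not called (adjusted p 0.0656, edgeR), and its NT response was -1.94. That NT fall rests on 6 and 6 estimated counts under KCl, beside 13 and 40 at rest. The Id1 call did not hold in 11 of 18 alternatives.

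Other large falls were in genes of mixed function, taken by the size of the difference. Zcchc3, a nucleic acid sensor cofactor of innate immunity, went from 13.2 and 13.7 to 2.52 and 2.68 CPM at DIV7 and stayed between 19.3 and 22.9 CPM in NT. Its difference was -2.48 (SE 0.17, adjusted p 0.000237, edgeR). Spaca6, known for its part in the fusion of sperm and egg, went from 13.0 and 10.0 to 1.59 and 1.54 CPM at DIV7 and lay between 4.27 and 5.57 CPM in NT, a difference of -2.80. Miip, an inhibitor of cell migration, differed by -2.53 (adjusted p 0.00571). Nrg4, a ligand of the ErbB4 receptor, differed by -3.17 (adjusted p 0.0355), and it did not pass in 8 of 18 alternatives.

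Of the named genes that fell at DIV7, 2 had an NT response above 1 on the log2 scale. Mbd6, a methyl-CpG-binding domain protein, was at 31.1 and 29.4 CPM at rest and 17.8 and 17.6 CPM under KCl at DIV7. In NT it was at 9.83 and 6.84 CPM at rest and 23.2 and 35.6 CPM under KCl. Both ages were without overlap between states, in opposite directions. The responses were -0.77 (SE 0.19, adjusted p 0.042) and 1.81 (SE 0.22, adjusted p 0.0506), and their difference was -2.59 (SE 0.29, adjusted p 0.0027, edgeR). Col15a1, a collagen of basement membranes, was at 11.9 and 11.7 CPM, then 2.61 and 3.69 CPM, at DIV7. In NT it was at 0.59 and 0.59 CPM at rest and 1.83 and 1.79 CPM under KCl, and the difference was -3.52 (SE 0.35, adjusted p 0.00137, edgeR).

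**Figure D3:**
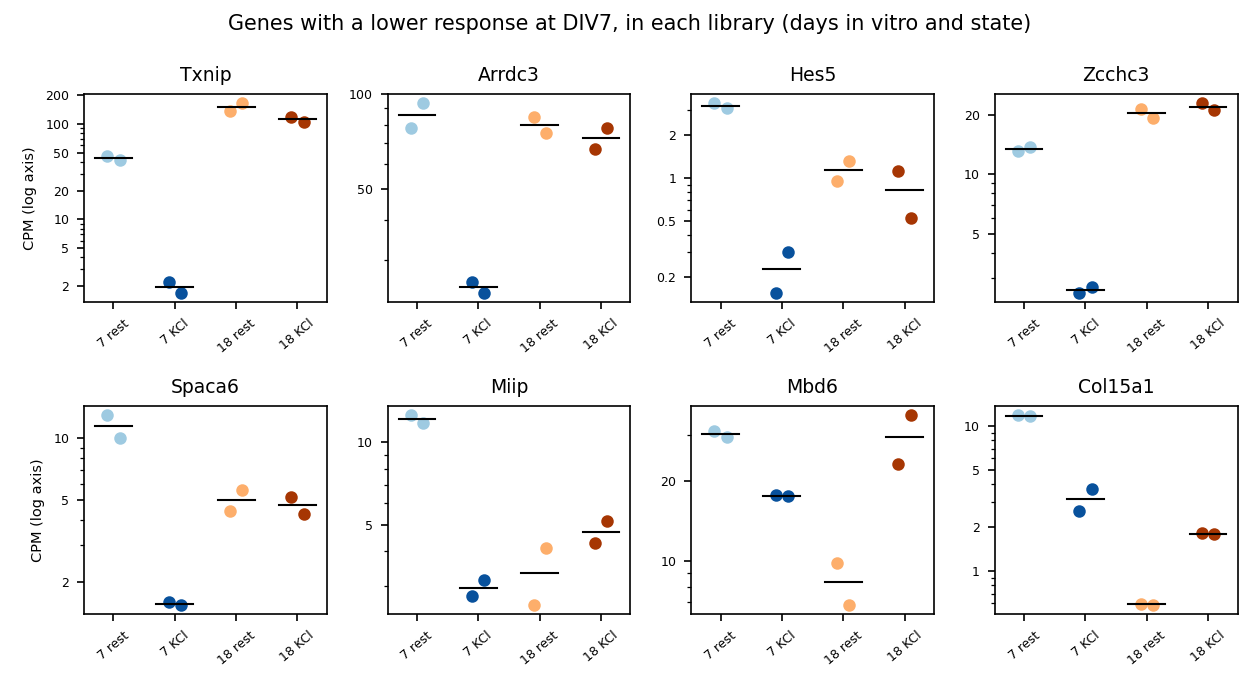
Levels of 8 genes with a lower response at DIV7 in each of the 8 libraries, in CPM on log axes, at 7 and 18 days in vitro, at rest and under KCl. Points are libraries and bars are means of 2. All 8 are lower under KCl at DIV7, while in NT Mbd6, Col15a1 and Miip are higher under KCl without overlap.

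Of 37 components of the route from calcium channel to nucleus, 2 rose and 1 fell at DIV7, near the 8.3% called among all genes. Elk1 was the 1 member called for the difference, near the 2.34% of all genes. Elk1 was at 54.2 and 55.3 CPM at rest and 39.8 and 40.6 CPM under KCl at DIV7, and between 109 and 113 CPM in NT. Its difference of -0.42 (adjusted p 0.0444, edgeR) did not pass in 15 of 18 alternatives.

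Among 28 subunits of BAF-type chromatin remodelling complexes, 4 fell at DIV7, beside 5.2% of all genes, and the median responses were -0.05 and 0.01. Smarcd2 was the 1 called for the difference, near the 2.34% of all genes. It went from 10.0 and 9.93 to 4.41 and 4.79 CPM at DIV7 and lay between 11.6 and 15.4 CPM in NT, a difference of -1.24 (SE 0.22, adjusted p 0.0233, edgeR) that did not pass in 7 of 18 alternatives. Smarcc2, the subunit the series targets, had responses of 0.06 and 0.16 (adjusted p of the difference 0.711).

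Of 15 heat shock and stress genes 3 rose and 1 fell at DIV7, beside 3.1% and 5.2% of all genes. Hspa1b, an inducible Hsp70 chaperone, was at 6.86 and 10.8 CPM at rest and 36.9 and 45.5 CPM under KCl at DIV7, and its NT values overlapped (15.8 and 31.8 CPM at rest, 20.99 and 10.7 CPM under KCl). The difference was 2.80 (SE 0.52, adjusted p 0.0316, edgeR) and did not pass in 7 of 18 alternatives. Hspa1b and Hspa1a are near-identical copies, so the split of reads between them is uncertain. Transcripts of replication-dependent histone genes normally lack a poly(A) tail. Hist1h1e was at 1.59 to 2.61 CPM at DIV7 and 56.1 to 74.0 CPM in NT, and library type and age cannot be told apart in this gap. Of 18 such histone genes tested, Hist1h1e was called higher for the difference (0.87), beside 0.603% of all genes, and Hist2h4 lower (-1.18), beside 1.74%. Hist1h1e did not pass in 11 of 18 alternatives and Hist2h4 in 5. None of 13 mitochondrial transcripts was called for any response.

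Over the 7 marker lists for cell types Hes5, in that for neural progenitors, was the 1 call for the difference, which is near the 2.34% of all genes. Of the 12 neuron markers 1 fell at DIV7, beside 5.2% of all genes. This was Tubb3, a neuronal tubulin named after its values were seen, which went from 978 and 1021 to 664 and 721 CPM.

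**Figure D4:**
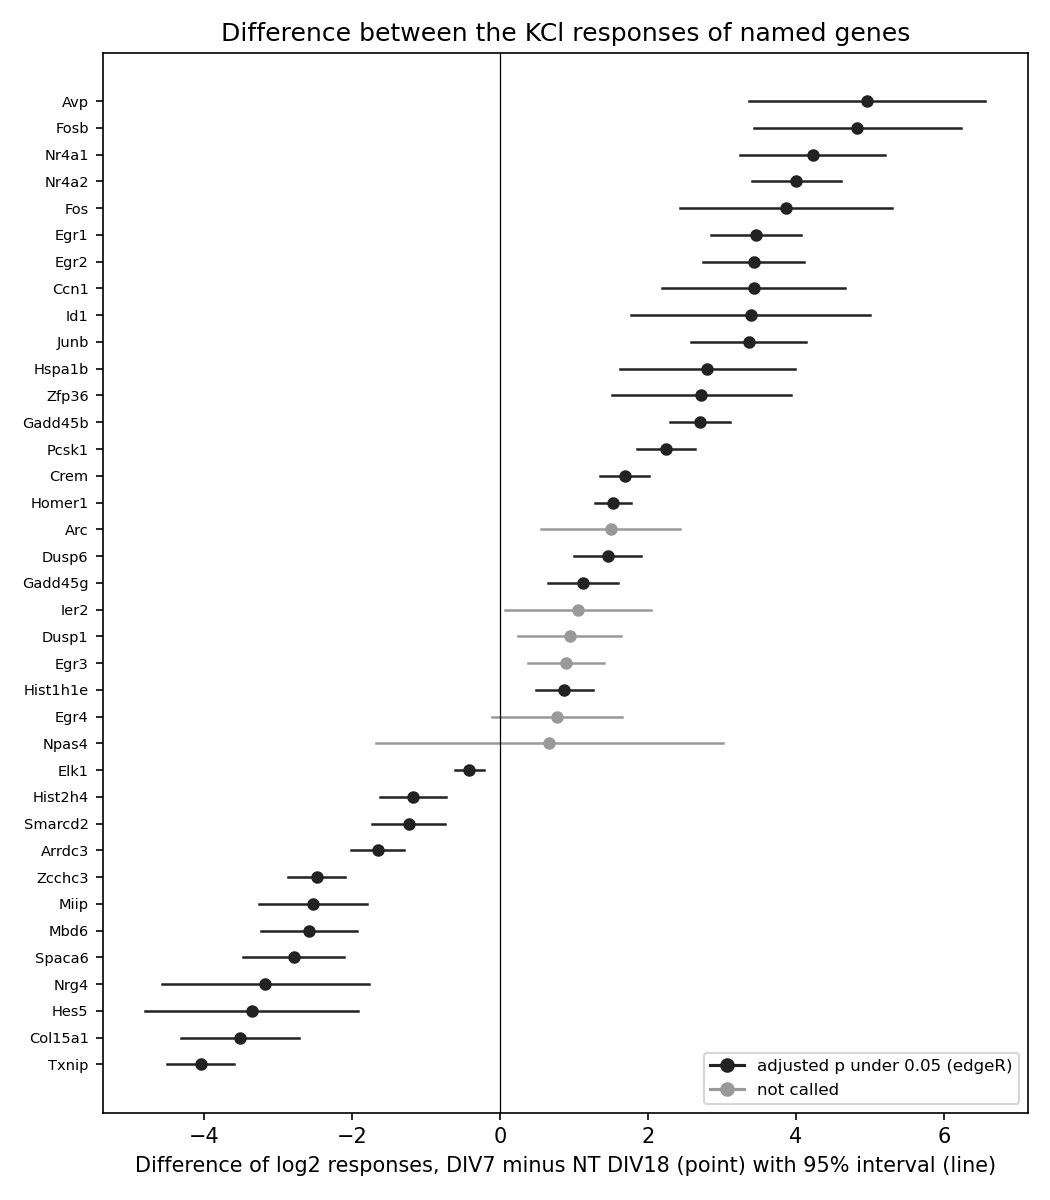
Difference between the KCl responses (DIV7 minus NT, log2 scale) of the 37 named genes, as points with unadjusted 95% intervals. Black marks the 31 genes with an adjusted p under 0.05 and grey the 6 without: Arc, Ier2, Dusp1, Egr3, Egr4 and Npas4. The range runs from -4.05 for Txnip to 4.96 for Avp.

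The response at DIV7 was also set beside those of the other DIV18 cultures that had both states. These carried a knockout of Smarcc2 with an empty vector (3 resting, 3 depolarized) or with wild-type Smarcc2 added back (2 and 3). All came from a fit of the 24 libraries (22459 genes tested), and the differences share the DIV7 libraries. Of the 25 early transcription factors, 16 were called higher at DIV7 (2.17% of all genes), 5 in NT (0.0356%), 8 in the knockout with vector (0.0846%) and 7 with wild-type Smarcc2 (0.0445%). The DIV7 response was called above that of NT for 10 of them (0.49%), above the knockout with vector for 11 (0.993%) and above wild-type Smarcc2 for 9 (0.543%). Fos had responses of 3.81 with vector and 4.52 with wild-type Smarcc2, against 7.25 at DIV7. Its difference from DIV7 passed with vector (3.45, adjusted p 0.0154, edgeR) but not with wild-type Smarcc2 (2.73, adjusted p 0.111). That of Egr2 did not pass with wild-type Smarcc2 either (1.30, adjusted p 0.626, edgeR).

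Nr4a2, Gadd45b, Pcsk1 and Homer1, with small NT responses, had small responses in the other DIV18 cultures too. Nr4a2 had log2 responses of 0.16 with vector and 0.48 with wild-type Smarcc2, and Gadd45b of 0.20 and 0.12. Pcsk1 had 0.34 and 0.28, and Homer1 0.25 and 0.25. Npas4 had 5.61 and 6.64, both above its 5.42 at DIV7 in this fit, with standard errors of 0.67 to 0.84. Egr2 was at 1.89 in NT, 1.61 with vector and 4.04 with wild-type Smarcc2, where its resting levels were 0.485 and 0.0486 CPM.

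Mbd6 rose under KCl in all 3 kinds of DIV18 culture in this fit. Its responses were 1.81 (adjusted p 0.00478) in NT, 1.22 (0.011) with vector and 1.67 (0.00218) with wild-type Smarcc2, against -0.76 (0.0602) at DIV7 (edgeR). Its resting levels were 8.96 to 12.2 CPM with vector and its depolarized levels 20.8 to 29.9 CPM, with no overlap. Txnip had responses of 0.46 and -0.17, and Col15a1 of -0.33 and 0.85, so the NT response of Col15a1 was not shared in direction by the knockout with vector. Id1 had 1.91 (SE 0.85) with vector and -0.17 (SE 0.77) with wild-type Smarcc2, against 1.46 at DIV7 and -1.95 in NT. The Id1 difference between DIV7 and the knockout with vector was -0.44 (adjusted p 0.905, edgeR), opposite in sign to that between DIV7 and NT.

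**Figure D5:**
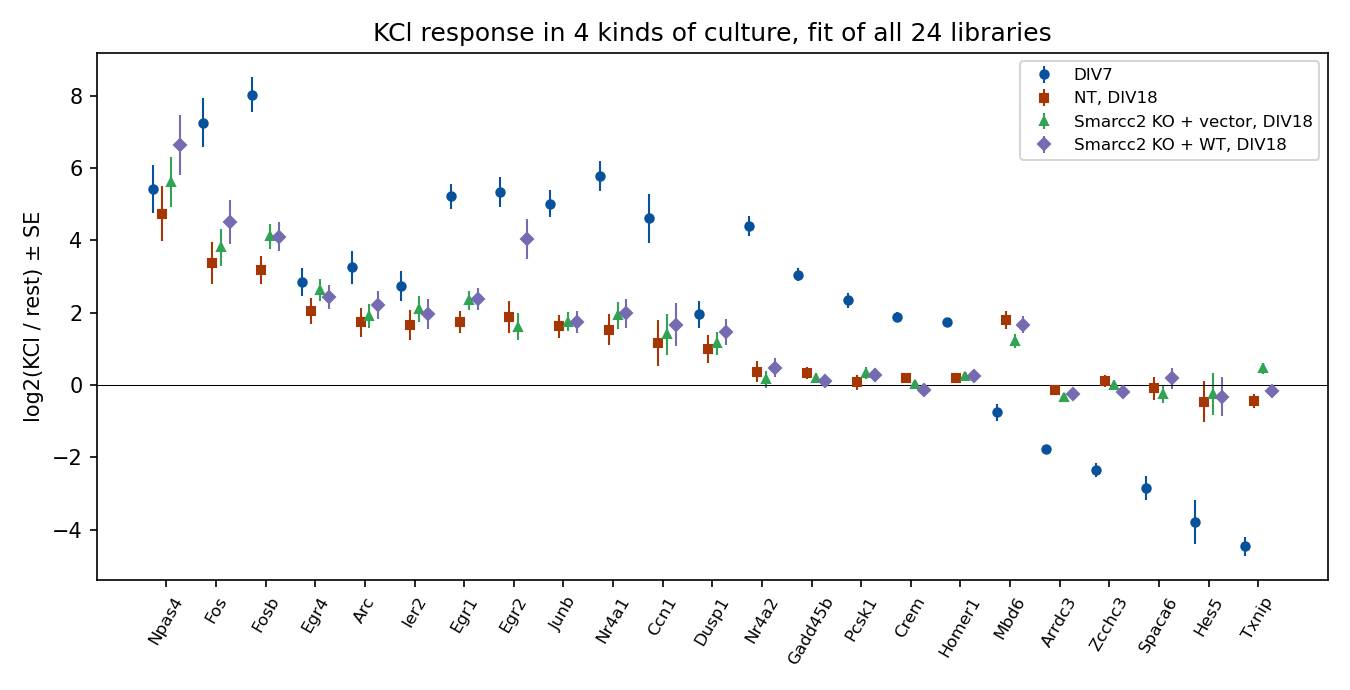
Log2 responses to KCl of 23 named genes in 4 kinds of culture, from the fit of all 24 libraries, with points for the estimates and bars for 1 SE. Nr4a2, Gadd45b, Pcsk1, Crem and Homer1 are near 0 in all DIV18 cultures, Npas4 is high in all 4, and Mbd6 lies above 0 in the DIV18 cultures and below 0 at DIV7.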

How the data were processed

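RNA sequencing libraries were analysed from the deposited tables, 1 per sample. Per the file headers, these hold estimated counts, TPM and effective length per transcript. Per the submitters' processing notes, FastQC, cutadapt and kallisto were used. Versions, genome build and annotation are not given in the sources used here. Of 142552 transcripts, 141429 (99.2%) matched GENCODE M21 (GRCm38). The authors' estimated counts were added up by gene, then rounded. The deposited TPM values only weighted transcripts for the effective length of a gene, and the authors' effective lengths gave offsets in 1 alternative.

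Groups were taken from the sample labels. The 8 libraries were fitted with 1 mean per group in edgeR 4.0.16 (R 4.3.3), with TMM normalisation, the filter filterByExpr, two-sided quasi-likelihood F tests and Benjamini-Hochberg adjustment over all genes. A call was an adjusted p under 0.05. Standard errors were derived from F. CPM are TMM-scaled. Depth was 19890849 to 30135576 estimated counts, with a median SE of 0.285 for the difference (log2). The scripts were tested on simulated data.

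The named genes were 12 early genes, up to 8 per direction by the size of a called difference (protein-coding, at least 1 CPM in a state at each age, no overlap), up to 4 called in both responses with opposite signs (none was), and up to 6 called genes per list. The members and the lists were chosen with earlier results of these data known. Tried as alternatives were DESeq2 1.42.0, edgeR with median-of-ratios size factors, limma 3.58.1 voom with a variance per age, other filters, protein-coding genes, length offsets, a replicate block, all 24 libraries, single ages, and leaving out each library. Promoter sequences are from RefSeq. The strand setting of the counting is not given in the sources used here, so reads of overlapping or antisense genes may be mixed.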

Additional observations from a re-analysis of the deposited data

Results flagged for a closer look

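The 494 genes called for the difference of responses, and the 31 named genes among them, stand here because the test of the difference between the ages itself passed (edgeR's quasi-likelihood test, adjusted over all genes). Differences are DIV7 minus NT on the log2 scale. Among transcription factors the DIV7 response was higher by 4.83 for Fosb, 4.23 for Nr4a1, 4.00 for Nr4a2 and 3.86 for Fos. It was also higher by 3.46 for Egr1, 3.43 for Egr2, 3.36 for Junb and 1.68 for Crem. Among other genes it was higher by 4.96 for Avp, 3.42 for Ccn1, 3.39 for Id1, 2.80 for Hspa1b and 2.72 for Zfp36. Further values were 2.70 for Gadd45b, 2.24 for Pcsk1, 1.52 for Homer1, 1.45 for Dusp6, 1.12 for Gadd45g and 0.865 for Hist1h1e. Negative differences were -0.42 for Elk1, -1.18 for Hist2h4, -1.24 for Smarcd2, -1.66 for Arrdc3, -2.48 for Zcchc3, -2.53 for Miip, -2.59 for Mbd6, -2.80 for Spaca6, -3.17 for Nrg4, -3.36 for Hes5, -3.52 for Col15a1 and -4.05 for Txnip. Library type, guide RNA and DMSO coincide with age and cannot be told apart from it in any of these values.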

How the results depend on the processing

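Of the 31 named genes called for the difference, 17 passed in every alternative run: Fosb, Nr4a2, Egr1, Egr2, Junb, Gadd45b, Pcsk1, Crem, Homer1, Dusp6, Arrdc3, Zcchc3, Miip, Mbd6, Spaca6, Col15a1 and Txnip. Over the 37 named genes and all alternatives, 539 values kept their direction and side of the threshold, 107 kept the direction and no longer passed, 17 newly passed, and 2 reversed. Both were for Npas4 (-0.027 without the first resting NT library, -0.0047 without the second depolarized NT library), which was 2.02 without the first depolarized NT library. DESeq2 gave Avp no adjusted p. The cause of these changes was not tested.

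The 494 differences became 1325 with no low-count filter (519 higher, 806 lower; 42163 genes tested), 258 with effective-length offsets (81 higher, 177 lower) and 108 to 452 when 1 library was left out. They fell to 108 to 141 without any 1 DIV7 library and to 252 without the second resting NT library. DESeq2 called 545, with 196 higher and 349 lower, against 127 and 367. All of the 494 genes that an alternative tested kept their sign in it, except that 492 did so with effective-length offsets. The 1748 calls at DIV7 became 3795 with voom, 3371 with the DIV7 libraries alone, 1126 with length offsets and 365 to 2028 without 1 library (365 to 481 without a DIV7 library). The NT count of 0 became 6 with median-of-ratios size factors, 63 with DESeq2, 462 with no filter, 6 with at least 10 counts in 2 libraries at each age, 5 with protein-coding genes only, 9 with all 24 libraries, 2 with the 20 DIV18 libraries, and 0 to 32 without 1 library (30 and 32 without the first or second depolarized NT library). The median difference of the early transcription factors was 0.645 to 1.68 without 1 library, and 1.68 without the first depolarized NT library. With no minimum fold change, 57.7% of genes called higher and 49.4% of genes called lower at DIV7 had the same direction in NT. For the genes that moved by at least 1 (51.1% and 55.4%), the shares without 1 library were 47.6% to 57.4% and 51.9% to 58.3%.

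Over all genes tested, deviations of same-numbered libraries were barely correlated (0.012 at DIV7, -0.0423 in NT), and the replicate number was not taken as a pairing. Counting noise lowers such a correlation, so it cannot exclude that same-numbered libraries shared an origin. With the replicate block within each age the calls were 157 for the difference, 933 at DIV7 and 1 in NT. With the NT numbers crossed in the replicate block, an alternative chosen after seeing the data, they were 759, 2164 and 53.

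With 2 libraries per group and a median SE of 0.285, small differences were not detectable.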

Other observations

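Genes with a zinc-finger symbol (Zfp and a number) made up many of the falls, a set chosen after its values were seen. Of 374 such protein-coding genes tested, 137 fell and 8 rose at DIV7 (36.6% fell, beside 4.81% of the other 15418 protein-coding genes). The difference was called lower in 58 of them (15.5%, beside 1.73%) and higher in 5. Their median response was -0.35 at DIV7 and -0.03 in NT. The difference was -2.48 for Zfp85 (NT response 0.38), -2.16 for Zfp128 (NT response 0.06) and -2.07 for Zfp472 (NT response -0.03). Most proteins of this family are DNA-binding factors, and the families of similar genes share sequence, so the assignment of reads among them is uncertain.

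Other genes chosen after their values were seen also moved at DIV7 with an NT response near 0. Tiparp, a mono-ADP-ribosyltransferase, rose by 2.73 (SE 0.11) at DIV7 and had 0.09 in NT, a difference of 2.63 (SE 0.16, adjusted p 0.000226, edgeR). Spty2d1 rose by 2.37 and had 0.04 in NT, and Fbxo33 rose by 2.23 and had 0.20. Mycn, a transcription factor of proliferating progenitors, fell by 2.05 at DIV7 with 0.38 in NT, a difference of -2.43 (adjusted p 0.000882, edgeR). Insm1, a factor of neurogenesis, fell by 1.86 with 0.23 in NT (difference -2.09, adjusted p 0.0107, edgeR).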
